A study of Homo sapiens with 2 samples.

Results

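The E-protein and ID factor loci are 5 windows of the human genome, build hg19, that hold the genes TCF3, TCF12 and TCF4, which encode E proteins, and ID2 and ID3, which encode their inhibitors. Their open chromatin was read by ATAC-seq, which uses the Tn5 transposase to cut and tag DNA wherever it is exposed, in RPMI-8402 and in Jurkat. Both are established human lines of T-ALL, the acute lymphoblastic leukaemia of immature T cells. A peak belonged to a locus when its summit, the base with the most overlapping fragments, lay inside the window. The windows were chr19:1590000-1670000 (TCF3), chr15:57150000-57600000 (TCF12), chr18:52850000-53350000 (TCF4), chr2:8750000-8900000 (ID2) and chr1:23840000-23930000 (ID3). They held 36 of the 49792 peaks called in both libraries, 16 in RPMI-8402 and 20 in Jurkat. Both lines were grown in the same medium with tetracycline-free serum, with no allele, transgene or drug given in the labels, and each was represented by 1 library. The study therefore carries no replicate error, no difference between the lines was tested, and intervals cover counting error only.

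E proteins are basic helix-loop-helix factors that bind DNA as dimers at E-boxes, short sites of the form CANNTG. ID proteins have the helix-loop-helix that forms dimers but lack the basic region that contacts DNA, so an E protein paired with an ID protein is kept from its sites. In developing T cells the products of TCF3 (E2A) and TCF12 (HEB) act at genes of receptor rearrangement and early T-cell identity, and ID3 is induced by receptor signals. TAL1, LYL1, LMO1 and LMO2 are T-ALL oncogenes whose products work in complexes with E proteins.

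Peaks in both lines lay at the start of every one of the 5 genes, and the members called in 1 line alone lay away from the starts. The height of a peak is given below as its pileup, the number of fragments covering the summit. It was solved from the deposited values, and because the caller's parameters are not given, the unit of fragments is assumed. The middle peak of the whole list had a pileup of 38 in RPMI-8402 and 37 in Jurkat, and the weakest called peak had 10 in RPMI-8402 and 9 in Jurkat. Among the members the pileup ran between 14 and 181 with a median of 63 in RPMI-8402, and between 11 and 173 with a median of 39 in Jurkat. The TCF3 start had the highest pileup of all members in both lines.

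In RPMI-8402, 14 of 16 members overlapped a peak called in Jurkat (87.5%, exact 95% interval 61.7 to 98.4%). In Jurkat, 14 of 20 members overlapped one called in RPMI-8402 (70%, 45.7 to 88.1%). Members without a partner thus numbered 2 in RPMI-8402, where 31.9% of all peaks had none, and 6 in Jurkat, where 32.6% of all peaks had none. The interval of each share included the share over the whole list, 68.1% in RPMI-8402 and 67.4% in Jurkat. These intervals treat the members as independent draws, which neighbouring peaks in chosen windows may not be. The same 14 pairs enter both shares, so the intervals are descriptive only. In each line 9 members lay within 2 kb of a known gene start, and all of these were shared, so the members without a partner all lay elsewhere. The share of start peaks that are shared over the whole genome was not determined. Starts were placed from general knowledge of hg19, and exons, introns and UTRs were not assigned to peaks.

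Promoter sequences show what lies at the starts whose peaks carry the account. RefSeq lists 1 promoter each for ID2, TCF3 and ID3 in build GRCh38.p14, as 250 bases before the start and 50 after it, and these 3 are printed 5′ to 3′ in gene direction with E-boxes in capitals. Their coordinates belong to that build and not to hg19. The ID2 promoter is on the plus strand at chr2:8681806-8682105, the TCF3 promoter on the minus strand at chr19:1652566-1652865 and the ID3 promoter on the minus strand at chr1:23559452-23559751.
ID2: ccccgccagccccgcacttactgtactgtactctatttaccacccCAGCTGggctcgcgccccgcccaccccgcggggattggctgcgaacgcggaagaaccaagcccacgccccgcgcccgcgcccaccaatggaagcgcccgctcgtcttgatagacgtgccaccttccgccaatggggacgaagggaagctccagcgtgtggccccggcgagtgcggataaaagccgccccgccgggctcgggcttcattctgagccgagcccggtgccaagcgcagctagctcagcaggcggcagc
TCF3: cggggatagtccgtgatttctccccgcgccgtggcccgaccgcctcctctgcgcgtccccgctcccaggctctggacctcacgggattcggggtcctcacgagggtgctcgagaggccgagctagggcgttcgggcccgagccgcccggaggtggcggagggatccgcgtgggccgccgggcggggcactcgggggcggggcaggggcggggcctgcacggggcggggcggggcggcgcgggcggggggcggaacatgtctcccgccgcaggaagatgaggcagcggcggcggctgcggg
ID3: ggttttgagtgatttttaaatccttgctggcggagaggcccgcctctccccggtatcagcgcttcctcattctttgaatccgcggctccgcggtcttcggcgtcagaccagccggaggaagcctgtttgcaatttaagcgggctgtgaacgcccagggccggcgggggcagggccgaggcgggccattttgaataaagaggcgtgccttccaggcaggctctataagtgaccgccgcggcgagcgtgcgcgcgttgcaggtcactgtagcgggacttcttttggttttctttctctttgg
The ID2 promoter held 1 E-box, CAGCTG, which begins 205 bases before the start. The TCF3 and ID3 promoters held 0 matches to CANNTG, which reads the same on both strands as a pattern and was found in 68.7% of 34796 distinct RefSeq promoters of this length. CAGCTG itself was found in 17.9% of them. GC content was 69.0% at ID2, 78.3% at TCF3 and 59.7% at ID3, beside a median of 58.7% over all these promoters. Among the 5 listed promoters of TCF12, 2 held a CANNTG match, and among the 10 of TCF4, 7 did. A match is a string of letters in this window, and binding was not measured.

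**Figure D1:**
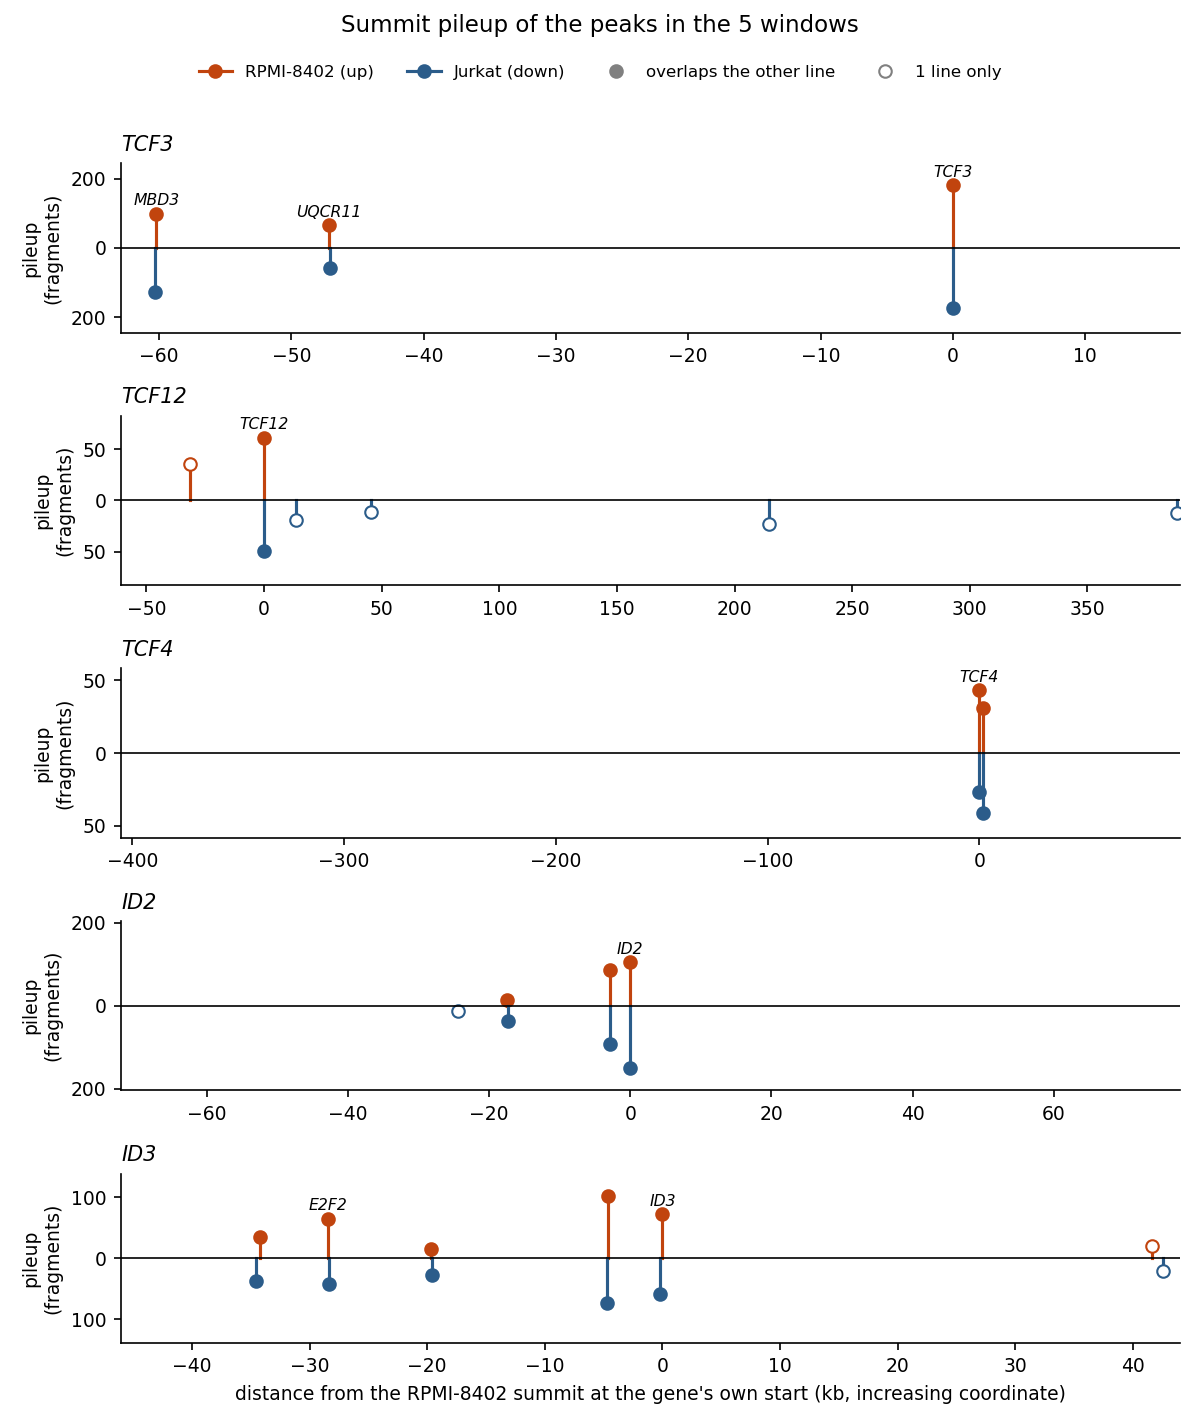
Summit pileup of every member peak, RPMI-8402 upward and Jurkat downward, against the distance in kb from the RPMI-8402 summit at the gene's own start. Filled points overlap a peak of the other line, and open points (2 in RPMI-8402 and 6 in Jurkat) do not.

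The TCF3 window, 80 kb long, held 3 peaks in each line, and all were shared. The window was crowded for its length, since 95.4% of 80-kb tiles of the autosomes with any peak held at most 3 RPMI-8402 peaks and 94.2% at most 3 Jurkat peaks. The peaks lay at the starts of TCF3 and of its neighbours UQCR11, which encodes a small subunit of respiratory complex III, and MBD3, which encodes a subunit of the NuRD chromatin remodelling complex. No further peak was called over the body of TCF3 in either line.

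At the TCF3 start the pileup was 181 (95% Poisson interval 156 to 209) in RPMI-8402, at positions 1652554 to 1653185, and 173 (148 to 201) in Jurkat, at positions 1652636 to 1653373. These heights exceeded those of 97.3% of all RPMI-8402 peaks and 94.0% of all Jurkat peaks. The log2 ratio of the pileups, RPMI-8402 over Jurkat and centred on the median of all 16494 pairs, which is -0.17 uncentred, was 0.24 (95% conditional binomial interval -0.07 to 0.54), and -0.24 when each pileup was divided by its library's background floor. The deposited fold enrichment ran the other way, with 10.5 in RPMI-8402 and 15.02 in Jurkat. The local background that enters the fold was 16.4 fragments in RPMI-8402 and 10.6 in Jurkat. The 2 measures thus put the lines in opposite order at this promoter, and the pileup interval included 0.

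The UQCR11 start had a pileup of 66 in RPMI-8402 and 59 in Jurkat, a centred log2 ratio of 0.33 (-0.20 to 0.86), and -0.14 on the floor scaling. The MBD3 start had 99 in RPMI-8402 and 127 in Jurkat, a ratio of -0.19 (-0.58 to 0.20). Both intervals included 0. Pairs within 2.5 Mb of the window had a median of 0.01.

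The TCF12 window, 450 kb long, differed most in its list of peaks, with 2 in RPMI-8402 and 5 in Jurkat, of which 1 was shared. TCF12 is read toward higher coordinates. Its start peak was at positions 57210294 to 57211480 in RPMI-8402, where the pileup was 61 (46.7 to 78.4), and at positions 57210384 to 57211348 in Jurkat, where it was 49 (36.3 to 64.8). The centred log2 ratio was 0.49 (-0.08 to 1.06), an interval that included 0, and it stayed positive but fell to 0.01 on the floor scaling. Pairs within 2.5 Mb had a median of -0.28 and chromosome 15 as a whole one of -0.22, both below the TCF12 start.

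Away from the start the lines had no TCF12 peak in common. The RPMI-8402-only peak lay 31.3 kb upstream of the start summit, at positions 57179157 to 57179860, where the pileup reached 35 (24.4 to 48.7), the fold 8.63 and the width 704 bp. The nearest Jurkat peak was 30523 bp away. It was the strongest of the members called in 1 line.

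The 4 Jurkat-only peaks lay downstream of the start. The strongest, 215 kb downstream at positions 57425402 to 57425753, reached a pileup of 23 (14.6 to 34.5) over a width of 352 bp, with the nearest RPMI-8402 peak 190116 bp away. A peak 13.4 kb downstream, at positions 57224240 to 57224545, had a pileup of 19 (11.4 to 29.7). The other two, 45.1 kb and 388 kb downstream, had pileups of 11 and 12, close to the weakest call in the library. The gene is 373 kb long in RefSeq GRCh38.p14, so the farthest of these lies beyond a distance equal to the gene's length. All 4 were narrower than the library's median width of 611 bp, and 2 of the 4 had a −log10 q below 10. The RPMI-8402 pileup at these sites is not in the peak list, so a signal just under the calling threshold could not be told from none.

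The TCF4 window, 500 kb long, was the sparsest, with 2 peaks in each line, both shared and both at the cluster of starts known there. TCF4 is read toward lower coordinates. Of the 500-kb tiles with any peak, 34.2% held at most 2 RPMI-8402 peaks and 36.7% at most 2 Jurkat peaks, and the tile median was 4 in each line. Below the pair of peaks, over the gene body, the next peak was 735 kb away in RPMI-8402 and 752 kb away in Jurkat, beyond the gene's length of 414 kb. The nearest peaks above lay 159 kb away in RPMI-8402 and 97.3 kb away in Jurkat. Both lines therefore had called peaks at 1 group of TCF4 starts and at no other point of the window.

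The 2 TCF4 peaks, whose summits were 1.87 kb apart in RPMI-8402 and 1.90 kb apart in Jurkat, stood in opposite order of height in the lines. The lower-coordinate peak, at positions 53254850 to 53255795 in RPMI-8402, had a pileup of 43 (31.1 to 57.9) there and 27 (17.8 to 39.3) in Jurkat. The higher-coordinate peak, at positions 53257038 to 53257473 in RPMI-8402, had 31 (21.1 to 44.0) there and 41 (29.4 to 55.6) in Jurkat. The lower peak was thus the taller one in RPMI-8402 and the higher-coordinate peak the taller one in Jurkat.

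The centred log2 ratio was 0.84 (0.11 to 1.59) at the lower peak, the highest of the 14 pairs, and -0.23 (-0.96 to 0.47) at the other. The lower peak was also wider in RPMI-8402, 946 bp against 552 bp in Jurkat. Both ratios kept their sign on the 4 scalings plotted by pair, but with the median of chromosome 18 as the centre they were 1.17 and 0.09, so the second changed sign. The 2 intervals overlap, and with 1 library per line the switch in order has no replicate check. Shared pairs on chromosome 18 had a median of -0.32, and the 17 pairs within 2.5 Mb one of -0.15.

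**Figure D2:**
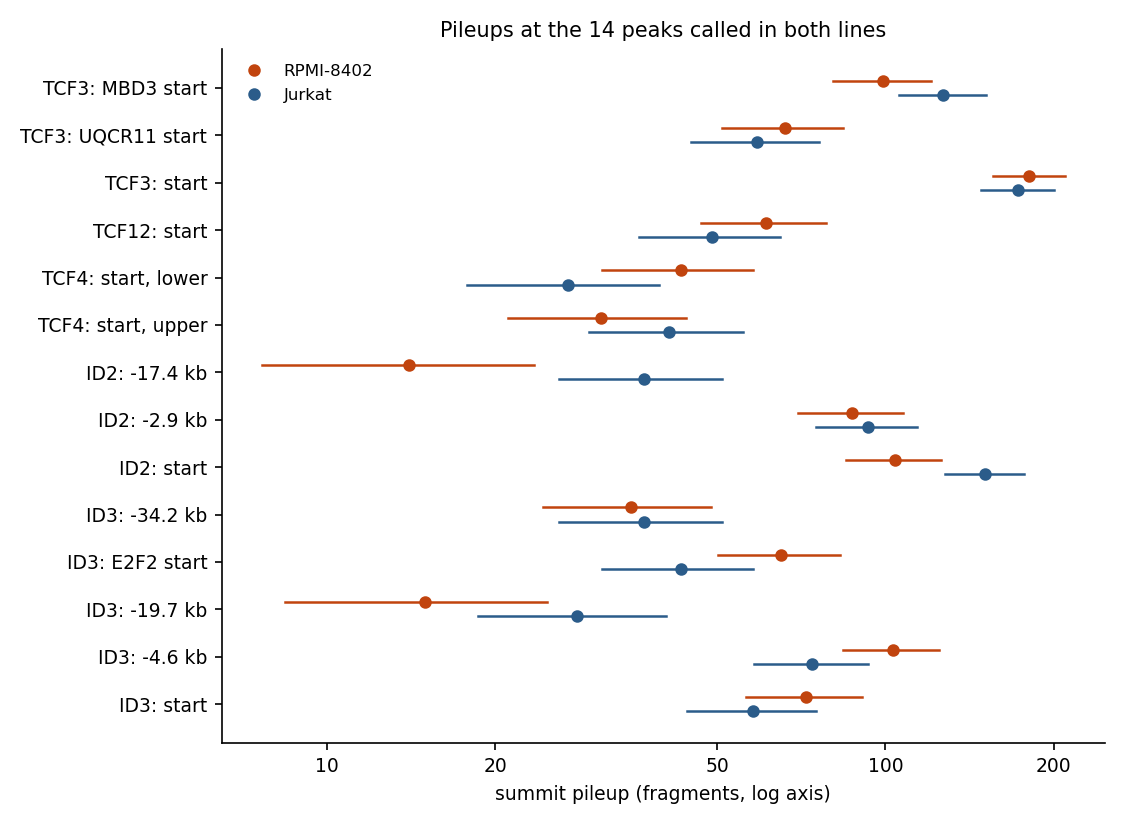
Pileups at the 14 pairs with exact 95% Poisson intervals, RPMI-8402 above Jurkat in each row, on a log axis. The TCF3 start is highest in both lines (181 in RPMI-8402 and 173 in Jurkat), and the ID2 element 17.4 kb below the start is lowest in RPMI-8402 (14, against 37 in Jurkat).

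The ID2 window, 150 kb long, held 3 peaks in RPMI-8402 and 4 in Jurkat, with 3 shared, all at or upstream of ID2, which is read toward higher coordinates. ID2 encodes an inhibitor best known from innate lymphoid and natural killer cells. The start peak, at positions 8821617 to 8822584 in RPMI-8402 and 8821956 to 8822626 in Jurkat, lies at the start whose promoter is printed above, and the place of its CAGCTG site within the hg19 peaks was not determined. RefSeq also lists starts of the antisense gene ID2-AS1 in that promoter, and ATAC-seq does not tell the strands apart.

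The ID2 start had a pileup of 104 (84.98 to 126) in RPMI-8402 and 151 (128 to 177) in Jurkat, and the summits fell on the same base. Its centred log2 ratio was -0.37 (-0.74 to 0.00), whose upper bound before rounding lay just above 0. The deposited fold was 4.95 in RPMI-8402 and 8.66 in Jurkat, in the same order as the pileups. Among the 9 pairs at gene starts, this was the lowest ratio. Pairs within 2.5 Mb had a median of 0.11.

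Upstream of ID2 a near and a far element had unlike ratios between the lines, although the intervals overlapped and the contrast was not tested. The near element, 2.92 kb upstream in both lines, had a pileup of 87 (69.7 to 107) in RPMI-8402 and 93 (75.1 to 114) in Jurkat. Its ratio was 0.07 (-0.36 to 0.51), and it turned negative on the 3 other scalings, with -0.10 unscaled. The called peak was 1257 bp wide in RPMI-8402 and 481 bp in Jurkat, although the summits were 5 bp apart. Height was thus similar here and width was not.

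The far element, 17.4 kb upstream by its RPMI-8402 summit, had a pileup of 14 (7.65 to 23.5) in RPMI-8402, at positions 8804679 to 8805012, and 37 (26.1 to 51.0) in Jurkat, at positions 8804366 to 8805295. The Jurkat peak was 930 bp wide and the RPMI-8402 peak 334 bp. The centred ratio was 0.426 (0.213 to 0.806), or -1.23 on the log2 scale. It was the single pair of the 14 to differ by at least 2-fold, and 97.6% of all pairs had a higher ratio. Its RPMI-8402 peak was a weak call, with a −log10 q of 3.71, above 1.22% of that library's peaks, against 21.6 in Jurkat. The pair also fell short of overlapping by 50% of both peaks. Over the whole genome, 4.89% of pairs were at least 2-fold higher in Jurkat and 9.21% at least 2-fold higher in RPMI-8402, where the loci had 1 and 0 such pairs. The deposited fold was 3.65 in RPMI-8402 and 7.96 in Jurkat, more than 2-fold apart before centring. Centred on the median of all pairs, which is -0.24 for the fold, its log2 ratio was -0.88, short of 2-fold.

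The remaining ID2 peak was called in Jurkat alone, 24.4 kb upstream at positions 8797475 to 8797752. Its pileup of 12 (6.20 to 21.0) is near the weakest called, and its nearest RPMI-8402 peak, 6926 bp away, was the far element.

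The ID3 window, 90 kb long, was the densest, with 6 peaks in each line, of which 5 were shared. At most 6 peaks were found in 99.7% of 90-kb tiles with any peak in RPMI-8402 and in 99.5% in Jurkat. ID3 encodes the inhibitor induced by receptor signals in thymocytes and is read toward lower coordinates. The neighbouring E2F2, which encodes a cell-cycle transcription factor of the E2F family, has its start in the same window.

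The ID3 start had a pileup of 72 (56.3 to 90.7) in RPMI-8402, at positions 23885475 to 23886287, and 58 (44.04 to 74.98) in Jurkat, at positions 23885593 to 23886137. The ratio was 0.48 (-0.04 to 1.01), an interval that included 0, and 0.01 on the floor scaling. A taller peak stood 4.64 kb below it in RPMI-8402 and 4.52 kb below it in Jurkat, past the end of this gene of 1.58 kb. That downstream element, at positions 23881024 to 23881763 in RPMI-8402, had a pileup of 103 (84.1 to 125) there and 74 (58.1 to 92.9) in Jurkat. It reached 143% of the start's height in RPMI-8402 and 128% in Jurkat, and its ratio was 0.65 (0.20 to 1.10). At the other 4 genes the tallest peak of the window lay at the gene's own start in both lines, and at ID3 it did not in either line.

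The E2F2 start had a pileup of 65 (50.2 to 82.8) in RPMI-8402 and 43 (31.1 to 57.9) in Jurkat, a ratio of 0.77 (0.19 to 1.36). The ratios at the E2F2 start, the downstream element and the ID3 start were thus all positive, and each stayed positive on the 4 scalings. Pairs within 2.5 Mb had a median of 0.12, which lay below both lower bounds that exceeded 0. Further pairs lay between or beyond them. An element 19.7 kb below the ID3 start by its RPMI-8402 summit had a pileup of 15 (8.40 to 24.7) in RPMI-8402 and 28 (18.6 to 40.5) in Jurkat, a ratio of -0.73 (-1.74 to 0.22). The pair 34.2 kb below had 35 in RPMI-8402 and 37 in Jurkat, with summits 382 bp apart, farther than in 96.5% of all pairs.

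The last peak of the window was counted as called in 1 line in both lists, although the 2 peaks were neighbours. In RPMI-8402 it lay at positions 23927515 to 23928039, reaching 20 fragments (12.2 to 30.9), and in Jurkat at positions 23928423 to 23928951, reaching 21 (13 to 32.1). A gap of 383 bp separated them.

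**Figure D3:**
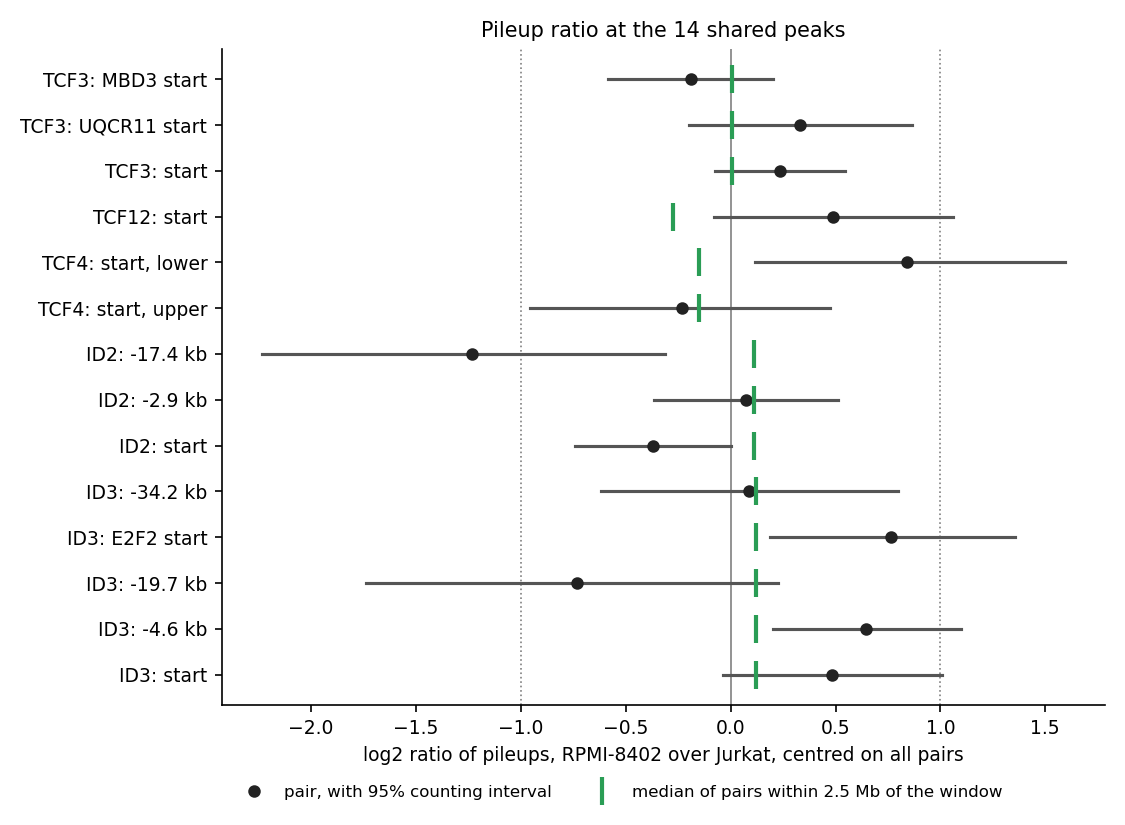
Centred log2 ratio of pileups, RPMI-8402 over Jurkat, at the 14 pairs with 95% conditional binomial intervals, and in green the median of pairs within 2.5 Mb of each window. The interval lies above 0 at 3 pairs (TCF4 lower start, E2F2 start and the element below ID3) and below 0 at 1 pair (the far ID2 element). The share of all pairs with such intervals was not determined.

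Over the 14 pairs the centred log2 ratio had a median of 0.16 and ran between -1.23 and 0.84, with 9 pairs above 0 and 5 below. The interval lay above 0 at 3 pairs and below 0 at 1. How often the interval excludes 0 over all pairs of the genome was not determined, so these counts are not a trait of the loci. By locus, the ratio of summed pileups of RPMI-8402 over Jurkat at shared peaks was 1.08 at TCF3 (0.933 to 1.26), 1.40 at TCF12 (0.946 to 2.08), 1.22 at TCF4 (0.869 to 1.73), 0.821 at ID2 (0.682 to 0.986) and 1.36 at ID3 (1.14 to 1.62). ID2 was the one locus whose sum was lower in RPMI-8402 on this scaling. Without its far element the ID2 ratio was 0.881 (0.725 to 1.07), and without the E2F2 start the ID3 ratio was 1.28 (1.06 to 1.56). The TCF3 sum took in the MBD3 and UQCR11 starts, and the TCF3 start alone had a ratio of 1.18 (0.950 to 1.46). On the floor scaling the ratios of sums were 0.782 at TCF3, 1.01 at TCF12, 0.883 at TCF4, 0.592 at ID2 and 0.981 at ID3. Those of TCF3, TCF4 and ID3 thus changed side. Dividing by the background floors moves the median log2 ratio of all pairs to -0.47, so signs within 0.47 of 0 on the positive side turn under it. The sign was positive on all 4 scalings at 5 pairs, negative on all 4 at 5 pairs and dependent on the scaling at 4 pairs, which were the starts of TCF3 and UQCR11, the near ID2 element and the ID3 pair 34.2 kb below the start.

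The local background under the peak was higher in RPMI-8402 at 12 of the 14 pairs, and at 8 pairs by more than the ratio of the library floors, 1.23. Over all peaks the median background was also higher in RPMI-8402, 4.25 fragments against 3.93 in Jurkat. The matching shares over all pairs were not determined. Among the 14 pairs the local background was highest at the ID2 start, with 20.2 fragments in RPMI-8402 and 16.6 in Jurkat. That is 10.3 times the library floor in RPMI-8402 and 10.4 times in Jurkat. At the ID3 start a pileup above that of 74.5% of RPMI-8402 peaks went with a fold of 4.09, under the median fold of 7.27. Copy number of the loci was not tested.

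**Figure D4:**
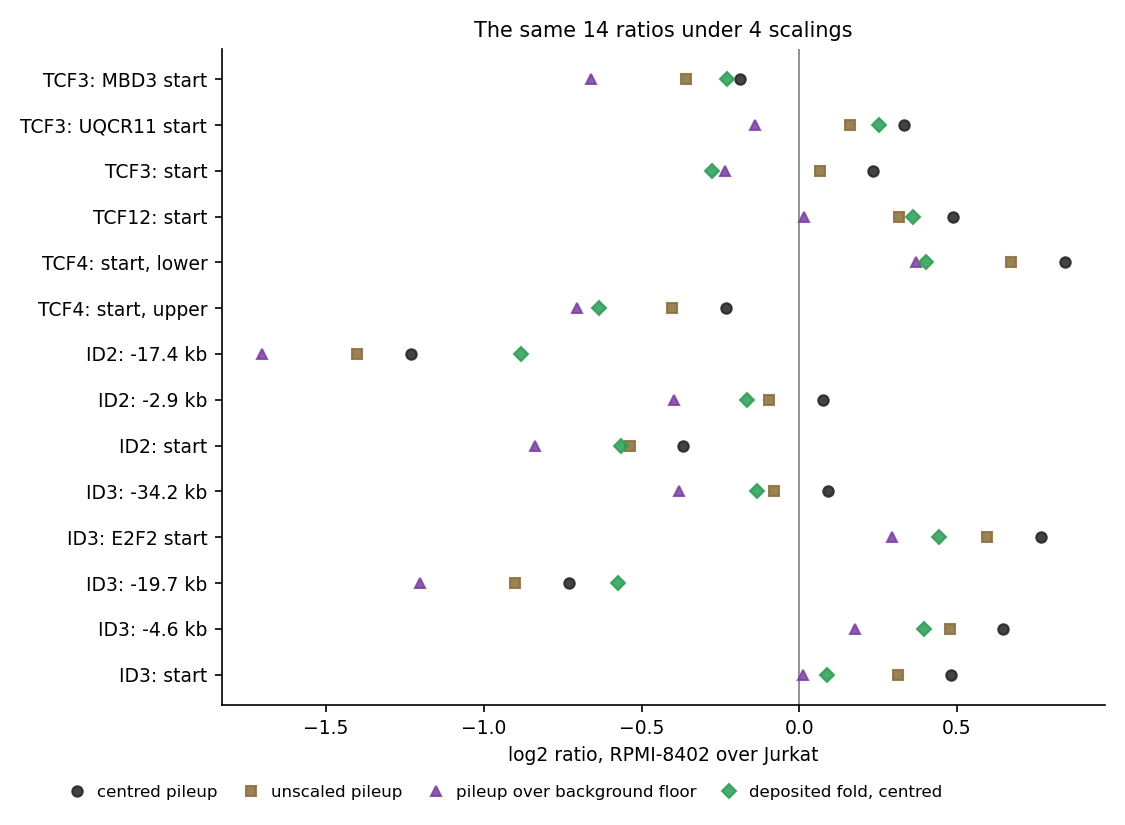
Log2 ratio of RPMI-8402 over Jurkat at the 14 pairs on the centred pileup, the unscaled pileup, the pileup over the background floor and the centred deposited fold. At 5 pairs all points lie above 0, at 5 pairs all lie below 0, and at 4 pairs they fall on both sides.

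Other genes that act with E proteins were counted in windows around each gene. Of ID1, ID4, TAL1, TAL2, LYL1, LMO1 and LMO2, 6 of 7 held a peak in each line, with TAL2 at 0 in both. The 7 windows held 8 peaks in RPMI-8402 and 13 in Jurkat. How often gene windows of these lengths hold a peak was not determined, so these counts are not a trait of the network. ID1, another inhibitor of the same family, had a highest pileup of 90 in RPMI-8402 and 76 in Jurkat. The deposited folds of these 2 peaks, 7.21 in RPMI-8402 and 8.32 in Jurkat, were in the opposite order. At LYL1 the shared peak had a pileup of 59 in RPMI-8402 and 18 in Jurkat, while the deposited fold was 4.01 in RPMI-8402 and 4.94 in Jurkat. The tallest Jurkat peak there, with 22, was called in Jurkat alone. At LMO1 the highest pileup was 45 in RPMI-8402 and 78 in Jurkat. At TAL1, which encodes the E-protein partner most often switched on in T-ALL, the tallest peak was a Jurkat-only one with a pileup of 48 at chr1:47704781-47705416. The RPMI-8402 peaks in that window reached 18. The RPMI-8402 pileup at the Jurkat-only site is not in the peak list, and copy number there was not tested.

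As a check of the cell type, the windows of the CD3 cluster, CD2, CD7 and BCL11B all held peaks in both lines, with 5 shared peaks over the CD3 genes. Among windows of other lineages, CSF1R had 0 peaks in both lines, while PAX5 held 2 peaks in RPMI-8402 and 1 in Jurkat. The highest PAX5 pileup was 35 in RPMI-8402 and 61 in Jurkat. The highest pileups of CD2, CD7 and BCL11B ran from 29 to 39 in RPMI-8402 and from 45 to 53 in Jurkat. PAX5 lay within that range in RPMI-8402 and above it in Jurkat. The CD3 cluster reached 46 in RPMI-8402 and 73 in Jurkat, above PAX5 in both lines. Only the tallest CD3 peak stood above the tallest PAX5 peak, and the other CD3 peaks stood below it in both lines. In Jurkat the deposited fold of the tallest CD3 peak was 8.21, against 11.1 at PAX5, the opposite order. In RPMI-8402 the folds of the tallest peaks were 7.31 at CD3 and 6.62 at PAX5. Pileups thus did not clearly separate the T-cell windows from PAX5. Near the edges of the locus windows, the Jurkat peak 388 kb past the TCF12 start was 961 bp inside, and a Jurkat-only peak with a pileup of 17 lay 2299 bp above the TCF3 window.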

How the data were processed

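ATAC-seq libraries of RPMI-8402 and Jurkat were sequenced as paired-end reads, with 1 library per line. The submitters' processing notes name Bowtie2, Picard, SAMtools, MACS2 2.1.1.2016030 and build hg19, and give neither roles nor parameters. Read filters, the Tn5 offset and library totals are not given in these sources. The authors deposited 1 peak list per library with a score, a fold enrichment, and −log10 of a p-value and a q-value per peak, all the authors' own. The score was not used.

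Pileup and local background were solved from the deposited fold and p-value, taking MACS2's known formulas (pileup plus 1 over background plus 1, and a Poisson upper tail). The solution was whole within 0.01 in 100% of peaks of each library. In simulated data, 100% of pileups were recovered for the 24603 RPMI-8402 and for the 25189 Jurkat peaks. The simulation used the same formulas, so it checks the solving step only. It cannot show whether the submitters' run followed those formulas. The background floor, the lowest local background, was 1.96 fragments in RPMI-8402 and 1.59 in Jurkat.

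Peaks on chromosomes 1 to 22, X and Y were used. Peaks overlapping by at least 1 bp were called shared, and pairs are 1 RPMI-8402 peak overlapping 1 Jurkat peak. Intervals are exact at 95% and cover counting error only. The named-peak rule takes, per locus and line, the highest peak, the strongest line-only peak, all line-only peaks with −log10 q of at least 10 and the extreme pairs. Other peaks were added after their values were seen. The members and lists were chosen with earlier results of these data known. Gene starts, to the nearest kb, and the windows of other genes came from general knowledge of hg19. A further window of another lineage is not reported here. The software was Python 3.11.15 with scipy 1.17.1, numpy 2.4.6, pandas 2.3.3 and matplotlib 3.10.9.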

Additional observations from a re-analysis of the deposited data

How the results depend on the processing

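Of 71 alternative values, 58 stayed within 1.5 times a count or within the counting interval of a share or ratio, and 13 did not. At −log10 q of at least 10, TCF12 kept 3 Jurkat peaks and TCF4 kept 1 RPMI-8402 peak. On the floor scaling the median log2 ratio of RPMI-8402 over Jurkat was -0.24 at TCF3, -0.17 at TCF4, -0.84 at ID2 and 0.011 at ID3, and the ratio of summed pileups was 0.782 at TCF3, 0.592 at ID2 and 0.981 at ID3, as that scaling shifts all pairs. On the deposited fold, centred on all pairs, the median was -0.23 at TCF3, -0.12 at TCF4 and 0.088 at ID3. The number of pairs 2-fold or more higher in Jurkat was 2 on the floor scaling and 0 on the centred deposited fold. It was also 0 for the 11 pairs that overlap by 50% of both peaks, which leave out the far ID2 element. Where no construction is given the cause was not tested. Centring on pairs within 2.5 Mb and the alternatives for summed pileups were chosen after seeing the data. No paired analysis was possible because the lines have a single library each, which also leaves no replicate to omit. Calls with pileups near 9 in Jurkat or 10 in RPMI-8402 say little about absence in the other line.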
